A study of Homo sapiens with 10 samples.

Results

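The BCL2 family apoptosis regulators described here were 10 genes, chosen by symbol from the gene rows of the count files. They were BCL2, BCL2L1, MCL1 and BCL2A1 (anti-apoptotic), BAX and BAK1 (effectors), and BCL2L11, BBC3, PMAIP1 and BID (BH3-only). All 10 were among the 52402 gene symbols listed, each on 1 row, and all 10 were among the 14884 genes that passed the filter on low counts. Messenger RNA was sequenced from BEAS2B cells, a line of human bronchial epithelial cells immortalised with an adenovirus-SV40 hybrid virus. Groups were named by what was transfected. They were a scrambled miRNA (miRcontrol), the miR-3124-5p mimic (miR3124_mimic), the miR-200b-3p mimic (miR200b_mimic), the miR-92b inhibitor (miR92b_inhibitor) or all 3 agents together (3-miRNA mixed group). Each group had 2 libraries. By the study's methods, cells at 60% confluence received 50 nM of an agent and RNA was taken 48 h later. The amount of each agent in the mixture was not given in the sources used here, and neither was whether the 2 libraries of a group came from separate transfections, so p-values measure only the spread between these libraries, which may be technical. The comparisons asked how each miRNA agent, alone or together, changed mRNA levels in a bronchial epithelial line.

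The BCL2 family decides whether the outer mitochondrial membrane stays intact. BAX and BAK1 form the pores that release cytochrome c, the anti-apoptotic proteins hold them and the BH3-only proteins in check, and the BH3-only proteins carry stress signals by binding the anti-apoptotic proteins or by activating BAX and BAK1. MCL1 and PMAIP1 proteins turn over quickly and several members are controlled after translation, so an mRNA level is not a protein level.

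The mature miRNAs are shown because their seeds, bases 2 to 8 from the 5′ end and written here in capitals, are the part that pairs with a target mRNA. The sequences are from RefSeq, build GRCh38.p14, and all lie on the plus strand. The source labels of the inhibitor name miR-92b without its arm, so both arms are given. The study's diagnostic panel holds miR-92b-5p. None of the 4 shares a seed with another.
hsa-miR-3124-5p: uUCGCGGGcgaaggcaaaguc
hsa-miR-200b-3p: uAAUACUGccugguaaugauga
hsa-miR-92b-5p: aGGGACGGgacgcggugcagug
hsa-miR-92b-3p: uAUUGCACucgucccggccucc
They map to chr1:248826383-248826403, chr1:1167160-1167181, chr1:155195196-155195217 and chr1:155195237-155195258, in that order.

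Seed matches were searched on the transcript strand, in each gene's 3′UTR as its longest coding transcript has it (GENCODE v29, GRCh38), as the 7 bases complementary to the seed (7mer-m8, CAGTATT for miR-200b-3p), the same followed by A (8mer, CAGTATTA) or the last 6 followed by A (7mer-A1, AGTATTA), with each place counted once. A match describes letters in the transcript and is not a measured site. For miR-200b-3p, 3 members held a match: PMAIP1 had 2, BCL2 had 1 and BCL2L11 had 3. Among 12232 genes with a 3′UTR, 25.7% held one, and among genes with a 3′UTR of like length (0.8 to 1.2 times) the share was 23.9% for PMAIP1, 58.4% for BCL2 and 50.7% for BCL2L11. The first 3 windows below are shown because BCL2 and PMAIP1 mRNA were lower after the miR-200b-3p mimic, and the fourth because BCL2L11, with 3 such matches, was not called. Capitals mark the match.
BCL2 7mer-m8, chr18:63125791-63125813 (minus strand): gaactgtaCAGTATTgtggctgc
PMAIP1 8mer, chr18:59904135-59904158 (plus strand): gttttcttCAGTATTActtaagat
PMAIP1 7mer-A1, chr18:59903852-59903874 (plus strand): tgtattagAGTATTAtatagctt
BCL2L11 7mer-A1, chr2:111166422-111166444 (plus strand): attgtaggAGTATTAaagaccag

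For the 3p arm of miR-92b, with the 7 bases GTGCAAT as its 7mer-m8 match, 5 members held a match (BCL2, MCL1, BAK1, BCL2L11 and BID), against 20.6% of all genes. Among genes with a 3′UTR of like length the share was 49.7%, 31.7%, 16.8%, 45.5% and 16.7%, in that order. Its 8mers were in MCL1, near the start of its 3′UTR, and in BCL2L11, and they are shown because both genes were measured after the inhibitor.
MCL1 8mer, chr1:150577348-150577371 (minus strand): tactgtaaGTGCAATAgttgactt
BCL2L11 8mer, chr2:111168357-111168380 (plus strand): ctttacttGTGCAATActgctgta
For the 5p arm (CCGTCCC), BAX, BAK1 and BCL2L11 held a match, against 5.97% of all genes. Among genes of like 3′UTR length the share was 3.5%, 5.57% and 11.3%. Its 8mer was in BCL2L11.
BCL2L11 8mer, chr2:111167157-111167180 (plus strand): ctcccctgCCGTCCCAtgaagtta
No member held a match for miR-3124-5p (CCCGCGA), which 0.826% of all genes did. BCL2L1, BCL2A1 and BBC3 held no match for any of the 4 miRNAs.

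The 10 libraries held 13587666 to 18503890 counts. Of 10 epithelial markers, TP63 and KRT14 had at most 2 counts in every library and CDH1, the epithelial cadherin, had 2 to 3 counts in miRcontrol, while KRT18 stood at 618 and 637 CPM (read counts scaled to the library's normalized total), so the epithelial label rested on simple keratins. The summed epithelial markers ran from 2225 to 2271 CPM in miRcontrol, 2782 to 2791 with miR3124_mimic, 4198 to 4278 with miR200b_mimic, 2100 to 2190 with miR92b_inhibitor and 4087 to 4114 in the mixed group. The 8 mesenchymal markers summed to 7641 to 7675 CPM in miRcontrol, 4798 to 4931 with miR3124_mimic, 4794 to 4848 with miR200b_mimic, 7176 to 7329 with miR92b_inhibitor and 5211 to 5230 in the mixed group. The sums rested mostly on KRT7, KRT8 and KRT18 and on VIM and FN1, and single markers went other ways. Of 7 epithelial markers tested, KRT19 was lower with miR3124_mimic (log2 fold change -3.40, adjusted p = 8.31e-17) and in the mixed group (-1.65, adjusted p = 1.15e-10), while 3 and 6 were higher there. Of the mesenchymal markers, VIM (-2.23) and SNAI2 (-1.12) fell with miR3124_mimic and ZEB2 (0.53), THY1 (0.44) and COL1A1 (0.99) rose, with FN1 at 0.05 (adjusted p = 0.216). With miR200b_mimic 6 of the 8 fell and COL1A1 (1.62) and SNAI2 (0.91) rose, and the mixed group also had these 2 higher (0.87 and 0.52) and 6 lower. With the inhibitor 4 rose and 3 fell. These markers moved with the same groups as several members below, and their part in those results was not tested. In bulk libraries, fewer cells of a kind and less RNA per cell cannot be told apart.

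Per length, as CPM per kilobase of merged exons, MCL1 mRNA was the most abundant member in miRcontrol at 84.4 ± 0.712 (SD, n = 2). BCL2L1 followed at 37.5 ± 0.0427, then PMAIP1 at 26.0 ± 0.396, BAX at 22.1 ± 1.08, BAK1 at 16.2 ± 0.422 and BID at 9.75 ± 0.169. The other 4 were far lower, with BCL2L11 at 1.55 ± 0.0905, BCL2 at 0.814 ± 0.0251, BBC3 at 0.744 ± 0.00889 and BCL2A1 at 0.428 ± 0.0632. Each neighbouring pair in this order differed by more than the SDs of both. The order within the middle and the low genes depended on the length used: per kilobase of the longest coding transcript, BAX (42.1) stood above PMAIP1 (29.8), BID (17.4) above BAK1 (16.2), and BBC3 (1.29) level with BCL2 (1.28). MCL1 stayed first and BCL2A1 last under both lengths.

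**Figure D1:**
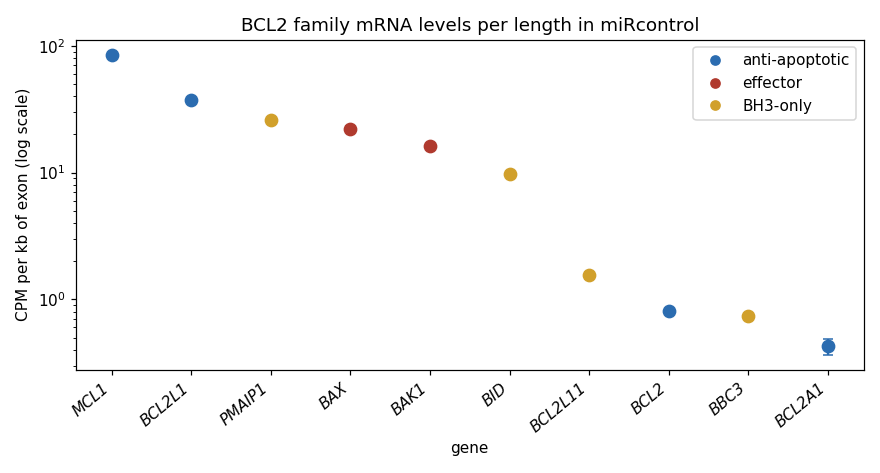
CPM per kilobase of merged exons on a log axis for each of the 10 genes in miRcontrol, with points at the mean and bars of 1 SD over 2 libraries, coloured by role. MCL1 stood highest at 84.4 and BCL2A1 lowest at 0.428, and BCL2 stood 8th of the 10 genes.

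Against miRcontrol, BCL2 fell 1.95-fold with the miR-200b-3p mimic, BAK1 rose 1.66-fold with it and 1.68-fold in the mixed group, PMAIP1 fell with both mimics and in the mixed group but rose 1.41-fold with the miR-92b inhibitor, and BCL2A1 rose 6.27-fold with the inhibitor and 6.69-fold in the mixed group. Counted at a Benjamini-Hochberg adjusted p under 0.05 in edgeR's quasi-likelihood test, 4 of the 10 members passed with miR3124_mimic (3 higher, 1 lower), where 51.0% of all genes tested did (25.7% higher, 25.3% lower). With miR200b_mimic, 5 passed (3 higher, 2 lower), against 40.6% of all genes (21.4% higher, 19.1% lower). The inhibitor gave 7 (6 higher, 1 lower), against 35.7% (17.5% higher, 18.2% lower). The mixed group gave 6 (4 higher, 2 lower), against 42.7% (21.5% higher, 21.1% lower). The members' median absolute log2 fold change was 0.08, 0.47, 0.28 and 0.33 in these 4 comparisons, and over all genes it was 0.287, 0.230, 0.201 and 0.232. These 4 comparisons share the miRcontrol libraries.

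Without a library of either group, the log2 fold change with miR3124_mimic ran from 1.25 to 1.55 for BCL2A1 and -0.26 to -0.15 for PMAIP1. BAK1 ran from 0.17 to 0.27 there and BCL2L1 from 0.09 to 0.13. With the inhibitor BAK1 ran from 0.10 to 0.29, BAX from -0.34 to -0.12 and PMAIP1 from 0.43 to 0.57. Several calls were lost in such refits, as given gene by gene below. These refits can call fewer genes of any kind, and the share of all genes in them was not counted. A minimum fold of 1.2 (edgeR glmTreat) left 1 of the 4 members with miR3124_mimic (BCL2A1), where 25.7% of all genes passed it, and 4 of the 5 with miR200b_mimic (all but MCL1), where 15.4% did. It left 2 of the 7 with the inhibitor (BCL2A1 and PMAIP1), where 7.30% did, and 3 of the 6 in the mixed group (BCL2A1, BCL2L1 and BAK1), where 16.5% did.

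**Figure D2:**
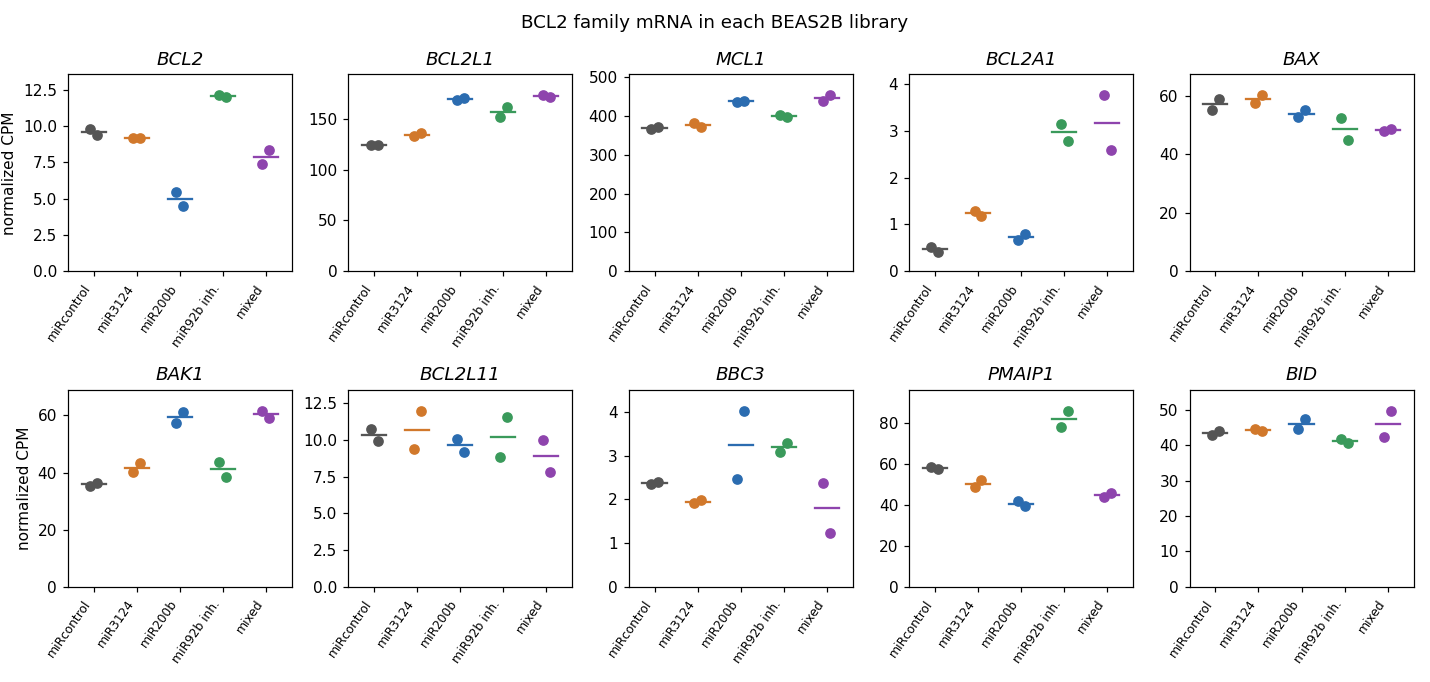
Normalized CPM of each gene in each of the 10 libraries, with 1 panel a gene, points for libraries and lines for the group means (n = 2). BCL2 was lowest in miR200b_mimic (5.45 and 4.48), BCL2A1 was highest in miR92b_inhibitor and the mixed group (2.58 to 3.76), and BID differed least between groups.

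**Figure D3:**
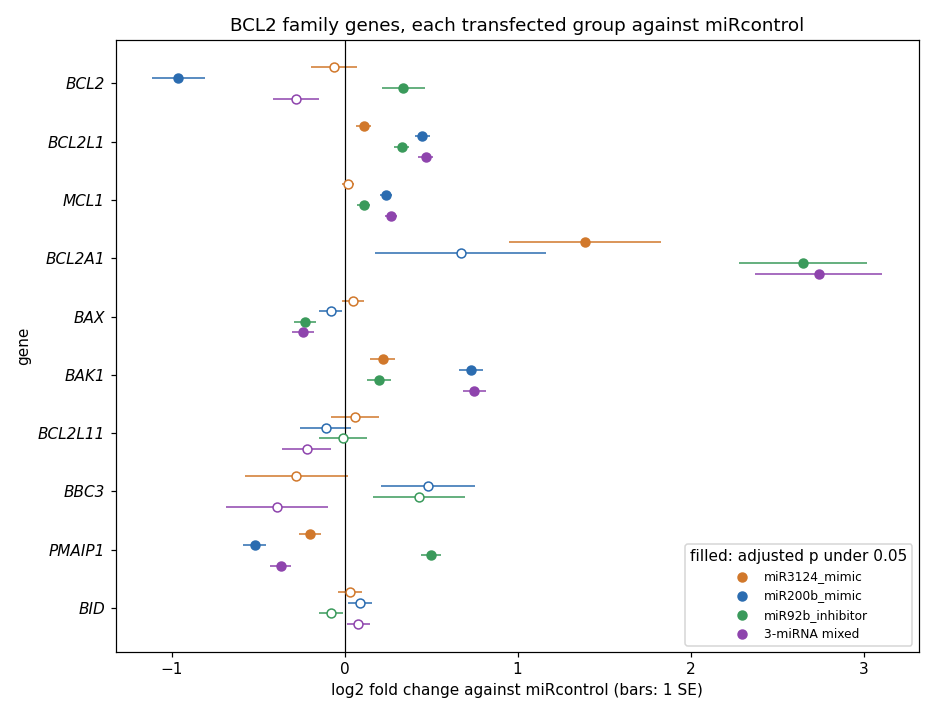
Log2 fold change of each gene in each other group against miRcontrol, with bars of 1 standard error and filled points at an adjusted p under 0.05. BCL2A1 reached 2.74 in the mixed group and BCL2 fell to -0.96 in miR200b_mimic, while BCL2L11, BBC3 and BID had no filled point.

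BCL2, the founding anti-apoptotic member (chr18:63123346-63320128, minus strand, GENCODE v29), was measured at 9.78 and 9.36 normalized CPM in miRcontrol, 9.21 and 9.21 with miR3124_mimic, 5.45 and 4.48 with miR200b_mimic, 12.13 and 12.03 with miR92b_inhibitor, and 7.40 and 8.33 in the mixed group. The miR-200b-3p libraries were the lowest of all and the inhibitor libraries the highest, and neither pair overlapped any other group. The log2 fold change with miR200b_mimic was -0.96 (SE 0.152, adjusted p = 9.54e-07), and leaving out any of the 4 libraries kept it between -1.09 and -0.81. With the inhibitor it was 0.34 (SE 0.126, adjusted p = 0.0335), a call lost without each of the 4 libraries in turn (adjusted p = 0.0819 to 0.154) and with DESeq2 (adjusted p = 0.157). In the mixed group the change of -0.28 missed the threshold (SE 0.135, adjusted p = 0.0881).

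BCL2L1 encodes BCL-XL and its shorter, pro-apoptotic splice form, which gene counts do not separate. Its mRNA stood at 125 and 124 CPM in miRcontrol, 133 and 136 with miR3124_mimic, 169 and 171 with miR200b_mimic, 152 and 161 with miR92b_inhibitor, and 173 and 171 in the mixed group. All 4 other groups lay above miRcontrol, and the 2 groups that received the miR-200b-3p mimic lay highest. The log2 fold change was 0.45 with miR200b_mimic (SE 0.043, adjusted p = 4.91e-12), 0.47 in the mixed group (SE 0.043, adjusted p = 6.91e-13) and 0.33 with the inhibitor (SE 0.043, adjusted p = 2.9e-08). The 0.11 with miR3124_mimic (SE 0.044, adjusted p = 0.0327) was lost without each library in turn (adjusted p = 0.0522 to 0.198). BCL2L1 shares exon bases with ABALON on the opposite strand, as do BAK1 with GGNBP1, BCL2L11 with MIR4435-2HG and BBC3 with MIR3190, and the strand setting of the counting was not given in the sources used here, so reads of these pairs may not have been told apart.

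MCL1, a short-lived anti-apoptotic protein, moved the same way with smaller folds. Its mRNA was 367 and 371 CPM in miRcontrol and 380 and 371 in miR3124_mimic, which overlapped. Levels were 436 and 437 with miR200b_mimic, 402 and 397 with miR92b_inhibitor, and 438 and 453 in the mixed group, all above miRcontrol. The log2 fold changes were 0.24 (SE 0.036, adjusted p = 2.01e-07), 0.11 (SE 0.036, adjusted p = 0.0099) and 0.27 (SE 0.035, adjusted p = 1.41e-08). The call with the inhibitor was lost without miRcontrol replicate 1 (adjusted p = 0.08) and without miR92b_inhibitor replicate 1 (adjusted p = 0.0589).

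BCL2A1, a target gene of NF-κB best known in leukocytes, had the widest range of the 10. Its counts were 9 and 7 in miRcontrol, 19 and 21 with miR3124_mimic, 9 and 14 with miR200b_mimic, 54 and 51 with miR92b_inhibitor, and 68 and 48 in the mixed group. As CPM these were 0.515 and 0.417, 1.30 and 1.19, 0.672 and 0.805, 3.15 and 2.79, and 3.76 and 2.58. The inhibitor and mixed libraries overlapped each other and lay above every other library. The log2 fold change was 2.65 with the inhibitor (SE 0.372, adjusted p = 1.39e-07) and 2.74 in the mixed group (SE 0.366, adjusted p = 2.24e-08), and leaving out a library gave 2.51 to 2.81 and 2.45 to 2.99. With miR3124_mimic it was 1.39 (SE 0.440, adjusted p = 0.00699), lost without miRcontrol replicate 2 (1.25, adjusted p = 0.0545), and with miR200b_mimic 0.67 (SE 0.493, adjusted p = 0.3). BCL2A1 mRNA remained low in absolute terms, at 2.91 ± 0.764 CPM per kilobase in the mixed group (SD, n = 2) against 102 ± 2.43 for MCL1.

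Leukocyte markers were set beside BCL2A1. PTPRC, the pan-leukocyte CD45 gene, had at most 2 counts in any library. The 7 markers summed to 1.32 to 1.73 CPM in miRcontrol, 0.747 to 0.822 with miR200b_mimic, 1.63 to 1.70 with miR92b_inhibitor and 2.26 to 2.32 in the mixed group, with 4 to 6 of the 7 at 3 counts or fewer in each library of a group. In miR3124_mimic the sum was 12.8 to 13.1, almost all of it CD14 (12.7 and 12.4 CPM).

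Of the effectors, BAX was called lower with the inhibitor and in the mixed group and was not called with either mimic alone. Its mRNA was at 55.1 and 59.1 CPM in miRcontrol, 57.6 and 60.3 with miR3124_mimic, 52.7 and 55.2 with miR200b_mimic, 52.5 and 44.96 with miR92b_inhibitor, and 47.95 and 48.65 in the mixed group. The inhibitor and mixed libraries lay below both miRcontrol libraries, and the other groups overlapped them. The fall was 0.24 on the log2 scale in the mixed group (fold change -0.24, SE 0.064, adjusted p = 0.00174) and 0.23 with the inhibitor (-0.23, SE 0.064, adjusted p = 0.00357). Without miRcontrol replicate 2 these gave adjusted p = 0.0524 and 0.0817, and without miR92b_inhibitor replicate 2 the latter gave -0.12 (adjusted p = 0.246).

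BAK1 (chr6:33572547-33580293, minus strand) was at 35.2 and 36.5 CPM in miRcontrol, 40.3 and 43.2 with miR3124_mimic, 57.4 and 61.3 with miR200b_mimic, 43.8 and 38.3 with miR92b_inhibitor, and 61.6 and 59.0 in the mixed group. Libraries of every other group lay above miRcontrol. The miR-200b-3p and mixed libraries lay above all others and overlapped each other. The log2 fold change was 0.73 with miR200b_mimic (SE 0.068, adjusted p = 1.3e-12) and 0.75 in the mixed group (SE 0.066, adjusted p = 2.63e-13), and both calls held under each alternative run. The smaller rises with miR3124_mimic (0.22, SE 0.071, adjusted p = 0.00757) and the inhibitor (0.20, SE 0.070, adjusted p = 0.0251) were lost without miRcontrol replicate 1 (adjusted p = 0.0686 and 0.154), among other settings. The pseudogene BAK1P1 had 10 to 26 counts a library and BAK1P2 0 to 9.

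Of the BH3-only genes, PMAIP1 (NOXA, which binds MCL1 and BCL2A1) changed in all 4 comparisons. Its mRNA was at 58.7 and 57.5 CPM in miRcontrol, 48.7 and 52.4 with miR3124_mimic, 41.9 and 39.5 with miR200b_mimic, 78.0 and 86.1 with miR92b_inhibitor, and 44.1 and 45.8 in the mixed group. The inhibitor libraries were the highest of all 10 and the miR-200b-3p libraries the lowest, and no group overlapped another. The log2 fold change was -0.52 with miR200b_mimic (SE 0.065, adjusted p = 5.92e-09), -0.37 in the mixed group (SE 0.062, adjusted p = 2.58e-06) and 0.50 with the inhibitor (SE 0.058, adjusted p = 1.42e-09). With miR3124_mimic it was -0.20 (SE 0.062, adjusted p = 0.00674), which missed the threshold without miRcontrol replicate 1 (adjusted p = 0.0518) or miR3124_mimic replicate 1 (adjusted p = 0.102). PMAIP1 (chr18:59899948-59904306, plus strand) is the gene with the 2 miR-200b-3p matches shown above.

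BCL2L11 (BIM, an activator that binds all anti-apoptotic members) was not called in any comparison. Its mRNA was at 10.8 and 9.90 CPM in miRcontrol, 9.35 and 11.98 with miR3124_mimic, 10.1 and 9.20 with miR200b_mimic, 8.86 and 11.6 with miR92b_inhibitor, and 10.0 and 7.80 in the mixed group. Every group's libraries overlapped those of every other group. The log2 fold changes against miRcontrol were 0.06, -0.11, -0.01 and -0.22 with SEs of 0.141, 0.145, 0.140 and 0.142 (adjusted p = 0.764, 0.603, 0.966 and 0.228). It held matches for miR-200b-3p and for both arms of miR-92b, and whether these act in the cells was not tested.

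BBC3 (PUMA, which binds all anti-apoptotic members) rested on 23 to 70 counts a library. Its levels were 2.35 and 2.39 CPM in miRcontrol, 1.91 and 1.98 with miR3124_mimic, 2.47 and 4.02 with miR200b_mimic, 3.09 and 3.28 with miR92b_inhibitor, and 2.38 and 1.24 in the mixed group. The libraries of miR200b_mimic and of the mixed group differed widely from each other. No comparison with miRcontrol was called (adjusted p = 0.459, 0.158, 0.223 and 0.301). Without miR200b_mimic replicate 1 the change with that mimic was 0.77 (adjusted p = 0.0435), and without mixed replicate 1 the mixed change was -0.93 (adjusted p = 0.0469), so each of these results rested on 1 library.

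BID, the BH3-only protein that caspase-8 cuts to link death receptors to mitochondria, ran from 40.5 to 49.7 CPM over the 10 libraries and was not called against miRcontrol. Its log2 fold changes were 0.03, 0.09, -0.08 and 0.08 (adjusted p = 0.738, 0.349, 0.429 and 0.336). Without mixed replicate 1 the mixed change was 0.20 (adjusted p = 0.0396).

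The range of group means on the log2 CPM scale summarised these patterns. It was 2.60 for BCL2A1, 1.28 for BCL2, 1.01 for PMAIP1, 0.87 for BBC3 and 0.75 for BAK1. For BCL2L1 it was 0.47, for BAX 0.29, for MCL1 0.27, for BCL2L11 0.26 and for BID 0.16. Among all 14884 genes, BCL2A1 stood at the 97.6th percentile of this range and BID at the 2.39th. Since low counts widen such a range, the positions of BCL2A1 and BBC3 are a description.

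Within a library, ratios of per-length levels set the members against each other. The ratio of BAX to BCL2 was 25.6 and 28.7 in miRcontrol, 43.9 and 56.0 with miR200b_mimic, and 19.7 and 17.0 with miR92b_inhibitor. In miR3124_mimic it was 28.4 and 29.7 and in the mixed group 29.5 and 26.6, both overlapping the miRcontrol values. The ratio of BAK1 to BAX was 0.746 and 0.722 in miRcontrol, 0.818 and 0.838 with miR3124_mimic, 1.27 and 1.30 with miR200b_mimic, 0.977 and 0.997 with miR92b_inhibitor, and 1.502 and 1.419 in the mixed group, and no groups overlapped.

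PMAIP1 to MCL1, an inhibitor and the protein it binds, stood at 0.313 and 0.303 in miRcontrol. The ratio was 0.251 and 0.277 with miR3124_mimic, 0.188 and 0.177 with miR200b_mimic, 0.380 and 0.425 with miR92b_inhibitor, and 0.197 and 0.198 in the mixed group. These ratios compare mRNA per length, were given without a test, and would be scaled by a constant under another gene length. With the length of the longest coding transcript, an alternative chosen after seeing the data, the ratio of BAK1 to BAX was under 1 in every library, at 0.669 and 0.682 with miR200b_mimic and 0.789 and 0.745 in the mixed group. MCL1 made up 63.5% to 68.7% of the summed per-length level of the 4 anti-apoptotic genes in every library, and BCL2 0.250% to 0.729%.

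**Figure D4:**
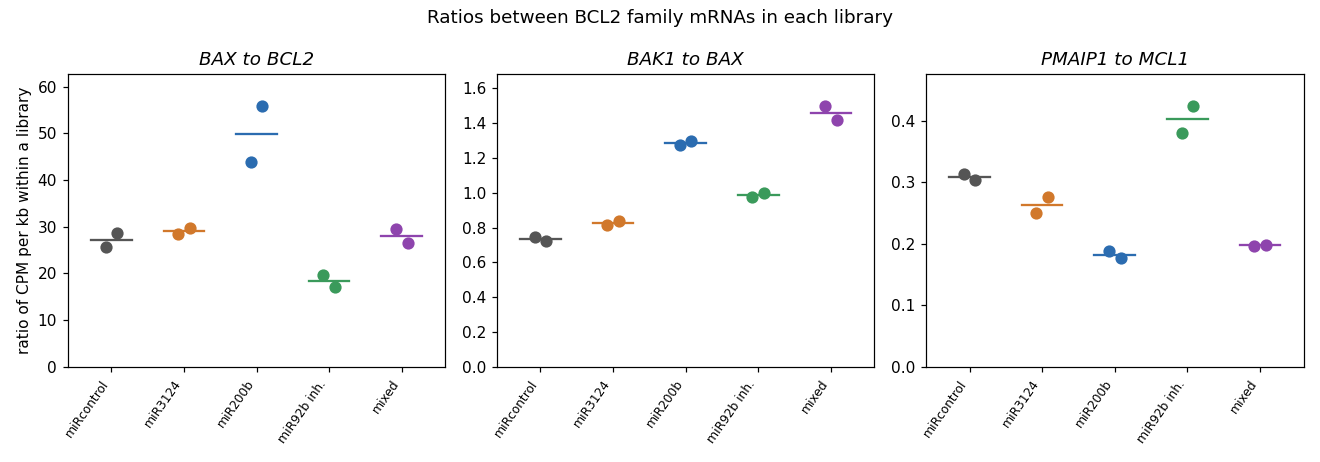
Ratios of CPM per kilobase between BAX and BCL2, BAK1 and BAX, and PMAIP1 and MCL1 in each library, with points for libraries and lines for group means (n = 2). BAX to BCL2 was highest in miR200b_mimic (43.9 and 56.0) and lowest in miR92b_inhibitor, and BAK1 to BAX was highest in the mixed group (1.502 and 1.419).

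The mixed group was then compared with each agent alone, to ask where the combination differed from its parts. It differed from miR200b_mimic in 4 members, where 38.6% of all genes did. BCL2 was higher in the mixture by 0.68 on the log2 scale (SE 0.156, adjusted p = 0.000424) and BCL2A1 by 2.07 (SE 0.343, adjusted p = 2.67e-06). BAX was lower by 0.16 (log2 fold change -0.16, adjusted p = 0.0462), a call lost in 10 of 12 alternatives. BBC3 was lower (-0.88, SE 0.282, adjusted p = 0.0111), a call that without miR200b_mimic replicate 2 became -0.45 (adjusted p = 0.39) and without mixed replicate 2 became -0.48 (adjusted p = 0.262). For BAK1 the difference was 0.02 (SE 0.062), for BCL2L1 0.02 (SE 0.042), for MCL1 0.03 (SE 0.035) and for PMAIP1 0.15 (SE 0.067, adjusted p = 0.0836), none past the threshold.

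From miR92b_inhibitor the mixture differed in 6 members, against 39.6% of all genes. PMAIP1 was lower by 0.87 (log2 fold change -0.87, SE 0.059, adjusted p = 6.1e-17), BCL2 was lower (-0.62, SE 0.129, adjusted p = 0.000113) and BAK1 was higher (0.56, SE 0.065, adjusted p = 8.63e-10), and these 3 calls held under each alternative. MCL1 (0.16, adjusted p = 0.000308) and BCL2L1 (0.14, adjusted p = 0.00627) were also higher, the latter not without miR92b_inhibitor replicate 1. BBC3 was lower (-0.82, adjusted p = 0.0157), but -0.42 without mixed replicate 2 (adjusted p = 0.317). BCL2A1 differed by 0.09 (SE 0.260, adjusted p = 0.816) and BAX by -0.01 (SE 0.065, adjusted p = 0.926).

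From miR3124_mimic it differed in 6 members, against 49.1% of all genes. BCL2A1 (1.35, adjusted p = 0.000248), BAK1 (0.53, adjusted p = 2.63e-09), BCL2L1 (0.36, adjusted p = 1.06e-09) and MCL1 (0.25, adjusted p = 1e-07) were higher in the mixture, and BAX (-0.29, adjusted p = 0.000187) and PMAIP1 (-0.17, adjusted p = 0.0219) were lower. The PMAIP1 call was lost without miR3124_mimic replicate 2 (adjusted p = 0.271) and without mixed replicate 1 (adjusted p = 0.134).

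**Figure D5:**
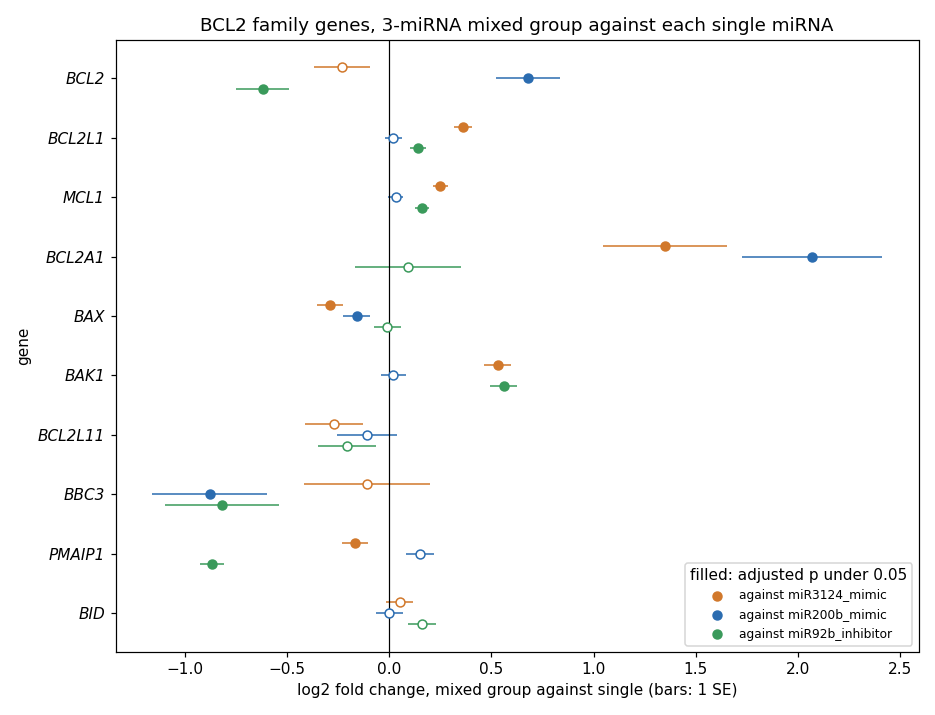
Log2 fold change of each gene in the 3-miRNA mixed group against each agent alone, with bars of 1 standard error and filled points at an adjusted p under 0.05. BAK1 and BCL2L1 lay at 0.02 against miR200b_mimic, and BCL2A1 and BAX at 0.09 and -0.01 against miR92b_inhibitor.

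Between single agents, the miR-92b inhibitor and the miR-200b-3p mimic differed in 7 members, against 50.5% of all genes. BCL2 was 2.45-fold higher with the inhibitor (log2 fold change 1.30, SE 0.146, adjusted p = 2.25e-10), BCL2A1 3.95-fold (1.98, SE 0.347, adjusted p = 4.31e-06) and PMAIP1 2.02-fold (1.02, SE 0.062, adjusted p = 7.64e-19). BAK1 was lower with the inhibitor (-0.54, SE 0.066, adjusted p = 2.39e-09). The miR-200b-3p mimic differed from the miR-3124-5p mimic in 6 members (57.8% of all genes), with BCL2 at -0.90 and BAK1 at 0.51. The inhibitor differed from the miR-3124-5p mimic in 7 (58.8% of all genes), with BCL2A1 at 1.26 and PMAIP1 at 0.70. The calls of BAX, MCL1 and BBC3 in that comparison did not hold without miR92b_inhibitor replicate 2. All these comparisons share libraries with those above.

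Likeness of pattern was measured for BCL2 and PMAIP1, the 2 members with a mean of at least 5 CPM and the widest range. Over the 10 libraries, the genes with the highest Pearson r of log2 CPM with BCL2 were MCFD2 (0.987), ARL2BP (0.982) and YWHAQ (0.982). For PMAIP1 they were C11orf95 (0.975), MBNL1 (0.971) and PPIE (0.966). These were the top 3 of 10417 genes searched, over libraries that fall into 5 groups, and are a description.

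The rest of the apoptosis pathway was read from a list of 52 other genes, of which 46 were tested. With miR3124_mimic 18 rose and 17 fell, with miR200b_mimic 18 rose and 4 fell, with the inhibitor 14 rose and 8 fell, and in the mixed group 17 rose and 10 fell. Of all genes tested, 25.7% rose and 25.3% fell with miR3124_mimic, 21.4% and 19.1% with miR200b_mimic, 17.5% and 18.2% with the inhibitor, and 21.5% and 21.1% in the mixed group, and the same shares are the background for its sublists. The median log2 fold changes were 0.05, 0.12, -0.00 and 0.04, and over all genes 0.004, -0.005, -0.006 and 0.003. A minimum fold of 1.2 left 16, 8, 6 and 13 of the 46, where 25.7%, 15.4%, 7.30% and 16.5% of all genes passed it.

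Among the 8 other BCL2 family genes tested of 11 listed, 6 were called with miR3124_mimic (2 higher, 4 lower), 5 with miR200b_mimic (all higher), 4 with the inhibitor (3 higher, 1 lower) and 4 in the mixed group (2 higher, 2 lower), beside 51.0%, 40.6%, 35.7% and 42.7% of all genes. BMF, a BH3-only gene tied to the cytoskeleton, rose from 2.05 ± 0.639 CPM in miRcontrol to 8.08 ± 0.242 with miR3124_mimic (SD, n = 2 each, log2 fold change 1.98, SE 0.242, adjusted p = 1.57e-09). HRK, another BH3-only gene, rose with miR3124_mimic from 7 and 8 counts to 23 and 27 (1.80, SE 0.474, adjusted p = 0.00127). In the mixed group HRK was at 17 to 28 counts (1.47, adjusted p = 0.0116), a call lost without miRcontrol replicate 1 (adjusted p = 0.0813) and without mixed replicate 2 (adjusted p = 0.169).

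BIK, a BH3-only protein of the endoplasmic reticulum, rose from 8 to 12 counts in miRcontrol to 28 to 31 with miR200b_mimic (1.71, SE 0.422, adjusted p = 0.000854). In the mixed group BIK stood at 21 to 27 counts (1.16, adjusted p = 0.0288), lost without miRcontrol replicate 2 and without mixed replicate 1 (adjusted p = 0.177 each). BCL2L14 had 0 counts and BCL2L10 at most 1 in every library. Reads of BCL2L2 and its readthrough BCL2L2-PABPN1 (955 to 1645 counts a library) share sequence and could not be separated.

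Of the 7 inhibitor of apoptosis genes and antagonists tested of 8 listed, 5 were called with miR3124_mimic (4 higher, 1 lower), 3 with miR200b_mimic (2 higher, 1 lower), 5 with the inhibitor (3 higher, 2 lower) and 4 in the mixed group (2 higher, 2 lower). BIRC3 (cIAP2, like BCL2A1 a known NF-κB target) rose from 23.5 ± 1.49 CPM in miRcontrol to 77.4 ± 7.80 with the inhibitor (1.72, SE 0.074, adjusted p = 1.6e-23) and 100 ± 4.59 in the mixed group (2.09, SE 0.072, adjusted p = 4.16e-28). Leaving out a library kept these between 1.61 and 1.82 and between 2.03 and 2.16.

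Of the death receptor genes upstream of BID, 11 of 13 listed were tested. With miR3124_mimic 5 rose and 3 fell, with miR200b_mimic 4 rose, with the inhibitor 3 rose and 2 fell, and in the mixed group 3 rose and 3 fell. TNFRSF10A, a TRAIL receptor, rose from 17.3 ± 0.357 to 37.2 ± 0.363 CPM in the mixed group (1.11, SE 0.081, adjusted p = 5.53e-16). TRADD, an adaptor of TNF receptor 1, fell from 13.2 ± 0.311 to 5.83 ± 0.625 CPM with miR3124_mimic (-1.17, SE 0.138, adjusted p = 6.46e-10). The ligand gene TNF had 0 counts in every library and FASLG at most 3.

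Regulators of BCL2 family transcription were 14 genes, all tested. With miR3124_mimic 4 rose and 7 fell, with miR200b_mimic 5 rose and 3 fell, with the inhibitor 4 rose and 2 fell, and in the mixed group 7 rose and 3 fell. FOXO1, a transcription factor known to act on BCL2L11, rose from 3.86 ± 0.197 to 12.2 ± 0.527 CPM with miR3124_mimic (1.66, SE 0.167, adjusted p = 7.78e-12), where BCL2L11 itself was not called. DDIT3 (CHOP), a stress-response factor, rose from 12.1 ± 0.646 to 31.7 ± 0.364 CPM with the inhibitor (1.40, SE 0.101, adjusted p = 1.71e-15). Of the 6 apoptosome and caspase genes, 5 were called with miR3124_mimic, 2 with miR200b_mimic, 2 with the inhibitor and 3 in the mixed group, none past 2-fold, where 51.0%, 40.6%, 35.7% and 42.7% of all genes were called.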

How the data were processed

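Messenger RNA libraries of BEAS2B cells were made with a poly(A), strand-marking kit and sequenced as paired ends. Per the labels and methods, the authors checked read quality with FastQC, trimmed and cleaned reads with FASTX_Trimmer and BBMap, and mapped them with TopHat to GRCh38. Versions, the counting tool, its annotation and its strand setting were not given in the sources used here. The deposited values are raw counts per gene, 58173 rows a library. Rows repeating a symbol (5771) were summed, and 0 columns of per-sample values were left unused.

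Genes passing filterByExpr (14884) were tested with edgeR 4.0.16 (limma 3.58.1, R 4.3.3) by the quasi-likelihood test, with RLE normalization, all 10 libraries in 1 fit, no covariates and Benjamini-Hochberg adjustment over all genes. Calls were made at an adjusted p under 0.05 (common dispersion 0.000752). Normalized CPM used the RLE library sizes, and the SE was the log2 fold change over the square root of F. Counting and replicate spread, not depth alone, limit genes under about 10 counts. On simulated data for the mixed group against miRcontrol (14636 genes), 23, 44, 49 and 50 of 50 genes each changed 1.2, 1.5, 2 and 4-fold were recovered, and 7 of 14436 unchanged genes were called. The simulation gave all genes the common dispersion and changed few genes, none of low counts. Its rates do not carry over to low-count genes such as BCL2A1, or to a comparison where 42.7% of genes were called. Replicates differed by more than sampling noise (chi-square over degrees of freedom 1.75 to 2.63), so none was a duplicate. Replicate numbers did not pair the libraries (correlations of deviations between groups -0.0274 to 0.0597).

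The members and gene lists were chosen with earlier results of these data known. All 10 members were described in every group. Of the other lists, genes were named when past an adjusted p of 0.05 and a 2-fold change against miRcontrol (at most 3 a list and comparison, largest first), or when they define the list and sit at 3 counts or fewer. Gene names, lengths and 3′UTRs came from GENCODE v29 and miRNAs from RefSeq (GRCh38.p14). Alternatives were TMM, library totals, DESeq2 1.42.0, glmTreat with a minimum fold of 1.2, no filter on low counts, a replicate block, a fit of the 2 groups alone, a filter of 10 counts or more in all libraries, leaving out each library, and the longest 3′UTR. The per-length alternative, also applied to the ratios, was chosen after seeing the data. Protein sequences were not used here.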

Additional observations from a re-analysis of the deposited data

How the results depend on the processing

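With 2 libraries a group, calls of small folds depended on single libraries. The fold changes followed here were all those against miRcontrol and, between agents, the called ones and a few uncalled ones of the mixed group. Gained calls between agents were therefore mostly not counted. A fit that leaves a group with a single library can call fewer genes of any kind. The share of all genes that lost a call was not counted. Of 324 member fold changes refitted without a library, 262 kept their direction and side of the threshold, 48 lost the call, 3 gained one and 11 turned sign. Of 639 under the other settings, 585 were kept and 54 lost the call. Between agents, differences not followed here also gained calls, as with library totals for the mixed group against miR92b_inhibitor. All sign changes were of uncalled differences. Without a library, against miRcontrol, BAX with miR3124_mimic ran from -0.003 to 0.097, BCL2L11 with miR3124_mimic from -0.145 to 0.213 and with the inhibitor from -0.220 to 0.168, and in the mixed group BBC3 from -0.931 to 0.006 and BID from -0.040 to 0.197. For the mixed group, BAK1 against miR200b_mimic ran from -0.025 to 0.069, and against miR92b_inhibitor BAX ran from -0.120 to 0.103 and BCL2A1 from -0.201 to 0.338.

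A minimum fold of 1.2 (glmTreat) asks for a larger change. Against miRcontrol it left 1 member called with miR3124_mimic, 4 with miR200b_mimic, 2 with the inhibitor and 3 in the mixed group. Of all genes, 25.7%, 15.4%, 7.30% and 16.5% passed it, in that order. The mixed group then differed in 3, 2 and 3 members from miR3124_mimic, miR200b_mimic and miR92b_inhibitor. The single agents differed in 3 (miR200b_mimic against miR3124_mimic), 2 (inhibitor against miR3124_mimic) and 4 (inhibitor against miR200b_mimic). Between agents the share of all genes past this minimum fold was not counted, so these member counts have no background. For the other apoptosis genes the minimum fold left 16, 8, 6 and 13 in the 4 comparisons with miRcontrol. The shares of all genes there were again 25.7%, 15.4%, 7.30% and 16.5%. Against miR200b_mimic the mixed group differed in 2 members with DESeq2 and 2 with at least 10 counts in every library, a filter that drops BCL2A1. The share of all genes called was not counted for these settings or for the replicate block below, so such member counts have no background.

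The replicate number was also fitted as a block, though the sources used here gave no pairing. That fit called 4, 5, 7 and 6 members against miRcontrol and 35, 22, 23 and 28 other apoptosis genes. It called 6, 4 and 6 members for the mixed group against miR3124_mimic, miR200b_mimic and miR92b_inhibitor, and 6, 7 and 7 between single agents. All 40 counts of seed matches were the same with the longest 3′UTR. For BCL2, BCL2L1, BAX, BAK1, PMAIP1 and BID this was the same transcript, so their counts could not differ. The 3′UTR grew from 2819 to 2824 bases for MCL1 and from 975 to 978 for BBC3. It grew from 4424 to 4480 for BCL2L11 and from 178 to 267 for BCL2A1. Of the fold changes of other apoptosis genes named, 139 of 148 kept their call under settings that kept all libraries and 66 of 76 without a library.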

Other observations

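Apoptosis genes outside the rule for naming also moved, and those given here were chosen after their values were seen. BIRC5 (survivin), an inhibitor of apoptosis gene also used in cell division, fell from 238 CPM to 141, 179, 200 and 151 with miR3124_mimic, miR200b_mimic, the inhibitor and the mixture (-0.75, -0.42, -0.25 and -0.66, adjusted p = 4.14e-19, 8.69e-11, 9.53e-06 and 3.67e-17 in edgeR's quasi-likelihood test).

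BAD, a BH3-only gene that responds to survival signals, fell 1.91-fold with miR3124_mimic, from 48.1 to 25.1 CPM (-0.94, SE 0.074, adjusted p = 4.13e-15), and leaving out a library kept the change between -0.99 and -0.88. Its other comparisons gave 0.22 with miR200b_mimic, 0.21 with the inhibitor and -0.19 in the mixed group (adjusted p = 0.00606, 0.0073 and 0.0154), each lost without some library.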
